A study of Homo sapiens with 2 samples.

Results

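The anaphase-promoting complex or cyclosome (APC/C) is a ubiquitin ligase, and 10 of its genes were followed here: the E2 enzymes UBE2C and UBE2S, the coactivators CDC20 and FZR1, the inhibitor FBXO5, the core subunits CDC27, CDC16, CDC23 and ANAPC11, and the substrate PTTG1 (securin). They were taken by name from the 21743 genes that could be named through the RefSeq accession of an array probe, and 11 probes carried them, 1 for each gene and 2 for CDC27. MRC-5 cells, fibroblasts of a widely used human fetal lung line, received either control siRNA or periostin siRNA, which was used at 10 nM for 48 h to see which genes depend on periostin, a matricellular protein. The dose and time of the control siRNA are not stated separately for the arrays. Total RNA of 1 sample per condition was labelled with Cy3 and hybridized to 1 single-colour Agilent expression array, both on the same slide. The siRNAs were ON-TARGETplus reagents delivered with RNAiMAX, and 1 line and 1 knockdown are all that the comparison covers. With 1 array per condition no test between the conditions could be run, so no p-value is given, and each ratio below is a difference between these 2 arrays without a replicate check.

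The APC/C attaches ubiquitin to proteins that must be destroyed for mitosis to end. Its core is a scaffold of many subunits with a cullin and a RING subunit. The E2 enzyme UBE2C places the first ubiquitin on a substrate, and UBE2S extends the chain. CDC20 recruits substrates in mitosis and FZR1 does so from late mitosis through G1, while FBXO5, also called EMI1, blocks the complex in S and G2 phase. The spindle checkpoint holds CDC20 in check until the chromosomes are attached, after which securin is degraded and releases separase to cut cohesin. In dividing cells the RNA of UBE2C, CDC20 and securin is known to peak in G2 and M phase.

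The signal of every spot is the background-subtracted intensity, scaled so that the 75th percentile of both arrays equals 377, and ratios are periostin siRNA over control siRNA on the log2 scale. Their error is the one Feature Extraction propagates for a single spot, or the SD over 10 spots where a probe was printed 10 times. It does not cover the difference between cultures. For bright single spots it was nearly constant, 0.204 for both ANAPC11 and UBE2S. A single-spot ratio called within or beyond the spot error is thus compared with this near-constant value, not with a measured spread. Over 667 probes printed 10 times, the pooled SD of the log2 ratio was 0.12. Between 58.0% and 58.9% of the 58717 non-control spots were well above background and 0 were saturated. The signal of the targeted gene POSTN was 2638 with control siRNA against 280 after its knockdown (log2 ratio -3.24 ± 0.20). All 8 fibroblast markers were well above background on both arrays, with log2 ratios between -0.54 and 0.83. Of 5 markers of epithelial, immune and endothelial cells, the E-cadherin gene CDH1 and the endothelial gene PECAM1 were below background on both arrays, while PTPRC went from 17.6 to 25.1, VWF from 72.1 to 79.8 and EPCAM from 34.6 to 135 (log2 ratio 1.97 ± 0.22). The part of the EPCAM difference in the results below was not tested.

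With periostin siRNA, 5 of the 6 APC/C regulators were lower by more than 2-fold, whereas the core subunits stayed near their control signal. The regulators here are the E2 enzymes, the coactivators and the inhibitor, and securin is counted with them although it is a substrate. UBE2C, CDC20, PTTG1 and UBE2S were lower by more than 3-fold, against 2.75% of the 16052 measured genes, and FBXO5 was lower by 2.90-fold. No member was higher by more than 3-fold, against 3.37% of measured genes. The 6 regulators had a median log2 ratio of -1.85 and ranged from -4.85 to -0.10, with all 6 below 0. The 14 core subunits, 4 of them members, had a median of 0.10 and ranged from -0.72 to 0.39. The median over all measured genes was 0.06, with quartiles of -0.31 and 0.42. All 14 core subunits lay within 2-fold, as did 85.6% of measured genes, so that the core as a whole sat where most genes did. RNA of a whole culture was measured, so fewer cells in the phases that express the regulators and less of their RNA per cell cannot be told apart.

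**Figure D1:**
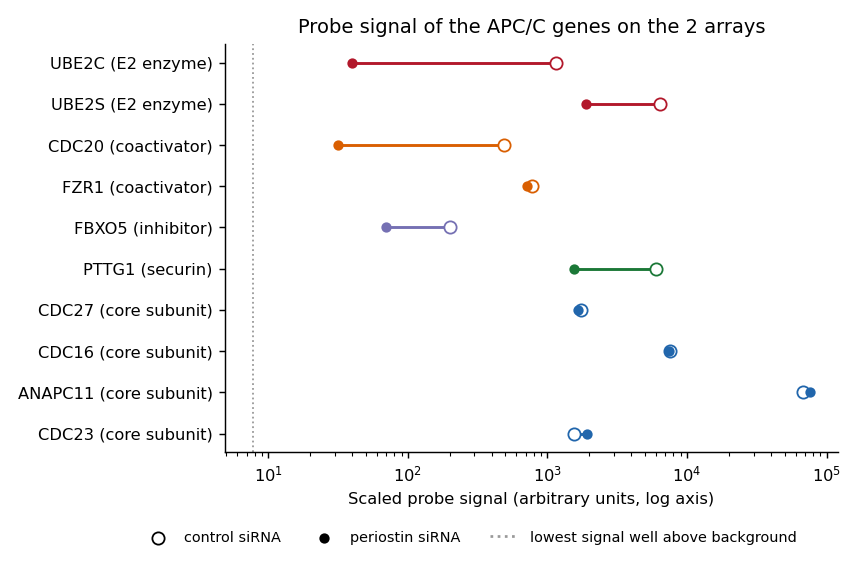
Scaled probe signal of the 10 APC/C genes, in arbitrary units on a log axis, with control siRNA (open circles) and periostin siRNA (filled circles), 1 array each, and a dotted line at the lowest signal well above background. The lines of UBE2C (1158 to 40.0) and CDC20 (485 to 31.8) are the longest, while both circles overlap for FZR1 and the core subunits CDC27 and CDC16.

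The promoters of the members that were lower are shown because genes expressed late in the cell cycle often carry 2 short elements near their start: the CHR, with the letters TTTGAA or TTTAAA, and the CCAAT box. Both strands were searched in 250 bases before to 50 bases after each RefSeq start on GRCh38.p14, and a gene with several starts counted when any window held the letters. Each line gives the 250 bases before the start, 5′ to 3′ on the strand of the gene, with matches to these letters in capitals (TTCAAA and ATTGG are matches on the opposite strand). The windows are chr1:43358731-43358980 (plus strand) for CDC20, chr5:160421605-160421854 (plus strand) for the upstream start of PTTG1, chr6:152983042-152983291 (minus strand) for the downstream start of FBXO5, chr19:55407789-55408038 (minus strand) for UBE2S and chr5:138213324-138213573 (minus strand) for the core subunit CDC23.
CDC20: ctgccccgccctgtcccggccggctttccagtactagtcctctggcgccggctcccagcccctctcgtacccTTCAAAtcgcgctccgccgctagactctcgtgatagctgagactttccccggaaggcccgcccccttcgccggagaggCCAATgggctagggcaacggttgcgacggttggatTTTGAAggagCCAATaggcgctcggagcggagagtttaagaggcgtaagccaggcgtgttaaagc
PTTG1: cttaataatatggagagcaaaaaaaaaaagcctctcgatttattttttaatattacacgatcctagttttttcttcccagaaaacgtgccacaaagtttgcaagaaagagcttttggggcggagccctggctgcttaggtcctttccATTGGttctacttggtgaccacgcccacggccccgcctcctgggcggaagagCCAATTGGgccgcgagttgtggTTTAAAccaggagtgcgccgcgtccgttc
FBXO5: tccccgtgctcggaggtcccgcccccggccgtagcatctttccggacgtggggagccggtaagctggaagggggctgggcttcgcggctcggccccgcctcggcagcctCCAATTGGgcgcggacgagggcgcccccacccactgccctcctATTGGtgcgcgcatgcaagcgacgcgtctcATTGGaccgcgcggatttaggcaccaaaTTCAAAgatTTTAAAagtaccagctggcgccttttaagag
UBE2S: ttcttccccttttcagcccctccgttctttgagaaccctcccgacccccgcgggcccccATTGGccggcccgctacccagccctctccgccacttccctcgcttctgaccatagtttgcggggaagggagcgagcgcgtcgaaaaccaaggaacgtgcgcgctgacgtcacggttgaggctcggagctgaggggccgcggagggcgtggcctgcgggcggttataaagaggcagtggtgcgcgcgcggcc
CDC23: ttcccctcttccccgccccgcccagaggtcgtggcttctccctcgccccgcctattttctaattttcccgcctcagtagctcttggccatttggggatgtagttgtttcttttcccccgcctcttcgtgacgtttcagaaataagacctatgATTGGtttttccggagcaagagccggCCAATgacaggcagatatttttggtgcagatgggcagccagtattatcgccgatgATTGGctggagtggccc
The CDC20 window held TTTGAA 65 bases before the start and, on the opposite strand, 178 bases before the start. Its CCAAT boxes lay 100 and 55 bases before the start. The PTTG1 window held TTTAAA 29 bases before the start, and the FBXO5 window held TTTAAA at 31 and TTTGAA at 40 bases, downstream of 3 and 4 CCAAT boxes respectively. In PTTG1 and FBXO5 a pair of CCAAT boxes on opposite strands overlapped. The other FBXO5 start, upstream of this one, held neither element. UBE2S held a CCAAT box at 191 bases and no TTTGAA or TTTAAA, although its signal was lower by more than 3-fold. FZR1, whose log2 ratio was -0.10, held TTTGAA 226 bases before 1 of its 2 starts. CDC23 held 3 CCAAT boxes but neither form of the CHR. The core subunit CDC27, whose log2 ratio was -0.08, held both elements: a CCAAT box 226 bases before its start and TTTAAA 40 bases after it. Either TTTGAA or TTTAAA was present in 4 of the 5 regulators with an entry, FZR1 among them, and in 4 of the 14 core subunits. The share was 27.9% of 27305 genes with a promoter entry and 22.3% of the 12407 measured genes with one. A CCAAT box was present in 4 of 5 and 6 of 14, against 39.7% of all and 42.2% of measured genes. Both elements together were present in 3 of 5 and 1 of 14, against 12.7% of all and 11.3% of measured genes. Of E2F site letters only TTTGGCGC and TTTCGCGC were searched, and either was present in 1.40% of all. They were in 0 of the 5 and 0 of the 14. Other forms of the E2F site were not searched, so these counts do not show that such sites are absent. UBE2C had no promoter entry. These matches are letters in a window, and binding to them was not measured.

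The member E2 enzymes, UBE2C and UBE2S, differed from each other. UBE2C, which starts the ubiquitin chain, had a signal of 1158 with control siRNA and 40.0 with periostin siRNA. It was 28.9-fold lower, a log2 ratio of -4.85 ± 0.21, so 3.46% of the control signal was left and 4 of the 16052 measured genes had a lower ratio. UBE2S, which lengthens the chain, had 6451 and 1904, a log2 ratio of -1.76 ± 0.20, or 3.39-fold lower. Both were well above background on both arrays, and their log2 ratios differed by -3.09 ± 0.30, beyond the spot error. The net median pixel brightness of the UBE2C spot, 1110 and 49.5, gave a log2 ratio of -4.49.

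The other E2 enzymes were set beside these values, and as a group they sat where most genes did. Among 31 of them the median log2 ratio was -0.01, and 29 lay within 2-fold, as did 85.6% of measured genes. Past 3-fold in either direction were 0, against 2.75% of measured genes lower and 3.37% higher. The lowest were UBE2T, the E2 of the Fanconi anaemia pathway, with 1746 and 826 (-1.08 ± 0.20), and UBE2V2, a partner of UBE2N in K63 chain formation, with 277 and 131 (-1.08 ± 0.21). UBE2M, an E2 for NEDD8, followed at -0.47 and UBE2J2, an E2 of the endoplasmic reticulum, at -0.33. UBE2R2, related to the SCF partner CDC34, was the highest at 0.76 and UBE2H was next at 0.72. UBE2C and UBE2S were thus the lowest of the 33 E2 enzymes.

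The coactivators differed as well, with CDC20 alone lower by more than its spot error. CDC20, the mitotic coactivator, had a signal of 485 with control siRNA against 31.8 with periostin siRNA. Its log2 ratio was -3.93 ± 0.22, or 15.2-fold lower, and 33 measured genes had a lower ratio. FZR1, which takes over after mitosis, had 771 and 719, and its log2 ratio of -0.10 ± 0.20 was smaller than its spot error. The log2 ratio of CDC20 lay below that of FZR1 by far more than the error of their difference, -3.83 ± 0.30. UBE2C and CDC20, the lowest pair of members, were themselves separated by -0.92 ± 0.31.

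FBXO5, the interphase inhibitor of the complex, had 201 with control siRNA and 69.1 with periostin siRNA. The log2 ratio was -1.54 ± 0.21, which lay just outside the 3-fold limit, as UBE2S lay just inside it, and their difference of -0.22 ± 0.29 was within its error. Lower by more than 2-fold were 6.42% of measured genes and 5 of the 10 members, FBXO5 among them.

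PTTG1 (securin), the substrate that restrains separase, had 5982 and 1562, a log2 ratio of -1.94 ± 0.20, or 3.83-fold lower, with 287 measured genes lower. Its ratio differed from those of UBE2S and FBXO5 by -0.18 ± 0.29 and -0.40 ± 0.29, the former within its spot error and the latter beyond it. ESPL1, the separase that securin holds inactive, had 438 and 182 (-1.27 ± 0.20). RNA of the protease and of its inhibitor was thus lower in the same sample, neither of them as far as UBE2C.

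The core subunits gave the contrast. CDC27, a TPR scaffold subunit that contacts the coactivators, had 1747 with control siRNA and 1651 with periostin siRNA (-0.08 ± 0.20), and its other probe, for a further transcript, gave -0.48 ± 0.21. CDC16, another TPR subunit, had 7567 and 7488 (-0.02 ± 0.20), and CDC23, also a TPR subunit, had 1546 and 1930 (0.32 ± 0.20). ANAPC11, the RING subunit that binds the E2 enzymes, had 68026 and 75798 (0.16 ± 0.20). Of these 4 only CDC23 differed from 0 by more than 1 spot error on its brightest probe.

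The other 10 core subunits filled in the same range. ANAPC2, the cullin subunit that pairs with ANAPC11, had 94.2 and 101 (0.09). The scaffold subunits ANAPC4 and ANAPC5 stood at 0.21 and 0.11, and the TPR subunit ANAPC7 at -0.05. ANAPC10, which helps to bind substrate, stood at -0.10, and the small subunits ANAPC13, ANAPC16 and ANAPC15 at 0.27, 0.32 and 0.39. CDC26, which stabilizes CDC16, had 3473 and 2517 (-0.46 ± 0.20). ANAPC1, the largest subunit, had the lowest ratio of the core, from 1220 to 740 (-0.72 ± 0.20), and 6 of its 7 probes lay between -0.97 and -0.12. The remaining probe, the next brightest, was higher with periostin siRNA, from 333 to 444 (0.42 ± 0.20), so the probes of ANAPC1 disagreed. On its brightest probe ANAPC1 lay above each of the 5 lower regulators by more than the spot error.

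**Figure D2:**
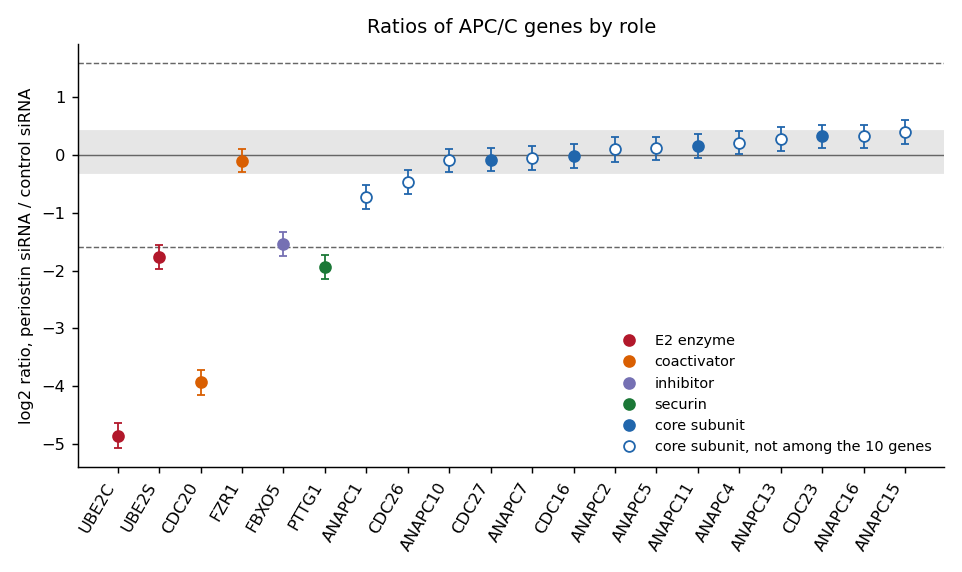
Log2 ratio (periostin over control siRNA) for the 10 APC/C genes (filled) and 10 further core subunits (open), coloured by role, with the error of each spot as bars, dashed lines at 3-fold and the middle 50% of all measured genes shaded. The regulators other than FZR1 lie between -4.85 and -1.54, and the core subunits between -0.72 and 0.39.

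A list of 9 genes covered the spindle checkpoint, which restrains CDC20, the regulation of that checkpoint, and other inhibitors of the complex. Its median log2 ratio was -2.33 with TTK and FBXO43 entered as bounds. Of the 9 genes, 5 were lower by more than 3-fold and 0 higher, against 2.75% and 3.37% of measured genes. BUB1, a checkpoint kinase, had 220 and 10.2 (-4.42 ± 0.35), and BUB1B, a subunit of the mitotic checkpoint complex, had 213 and 15.8 (-3.75 ± 0.25). MAD2L1, which binds CDC20 directly, had 474 and 71.5 (-2.73 ± 0.21). TRIP13, a regulator of the checkpoint, had 987 and 196 (-2.33 ± 0.20), which was the median of the list. TTK, the kinase that starts checkpoint signalling, had 86.7 with control siRNA and was not well above background with periostin siRNA, which made it at least 11.2-fold lower. MAD1L1 and MAD2L1BP, at 0.24 and 0.14, had the highest ratios. With normexp, an alternative background correction that models the background anew and adds an offset of 50 to every spot, the median was -1.08 and 4 genes were lower by more than 3-fold. The log2 ratio of TTK was then -1.08, which ended its call. Those of BUB1, BUB1B, MAD2L1 and TRIP13 were -2.0, -1.89, -1.96 and -1.95.

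Further substrates of the APC/C were taken as a list of 20, of which 19 carried a named probe and 18 were measured. CDC6 was below background on both arrays. All 18, with NEK2 and SGO1 entered as bounds, had a log2 ratio below 0, as did 7307 of the 16052 measured genes. Their median was -2.19, and 13 were lower by more than 3-fold, against 2.75% of measured genes. HMMR, a spindle protein, had 790 and 37.0 (-4.42 ± 0.21). ANLN, a cytokinesis scaffold, had 279 and 22.6 (-3.63 ± 0.23) and CDCA3, an adaptor for mitotic entry, had 584 and 60.1 (-3.28 ± 0.21). SGO1, which protects centromeric cohesin, went from 63.8 to a signal not well above background, at least 8.22-fold lower. The highest were CDC25A, a phosphatase that activates CDKs, with 172 and 164 (-0.07), and SKP2, with 78.8 and 66.5 (-0.24). With normexp, 7 of the 18 were lower by more than 3-fold, 17 lay below 0 and the median was -1.49. The log2 ratio of SGO1 was then -1.02, that of ANLN -2.16 and that of HMMR -3.12. Without scaling, 11 were lower by more than 3-fold. With only probes well above background on both arrays, 11 of 16 were, and the median was -1.65.

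The SCF ligase, a cullin-RING ligase that acts from G1 to mitosis, served as a related complex. The median of its 9 genes was -0.14 with CCNF entered as a bound. Of the other 8, 0 passed 3-fold, against 2.75% of measured genes lower and 3.37% higher. Lower by more than 2-fold were 2 of the 9, CKS1B and, as a bound, CCNF, against 6.42% of measured genes. CCNF, an F-box protein with a cell-cycle dependent level, had 18.5 with control siRNA and was not well above background with periostin siRNA, at least 2.38-fold lower. CKS1B, a cofactor of SKP2, had 6341 and 2741 (-1.21 ± 0.20), and the RING subunit RBX1 stood at -0.19. BTRC, an F-box protein, was the highest at 0.66, and the adaptor SKP1 stood at 0.32.

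**Figure D3:**
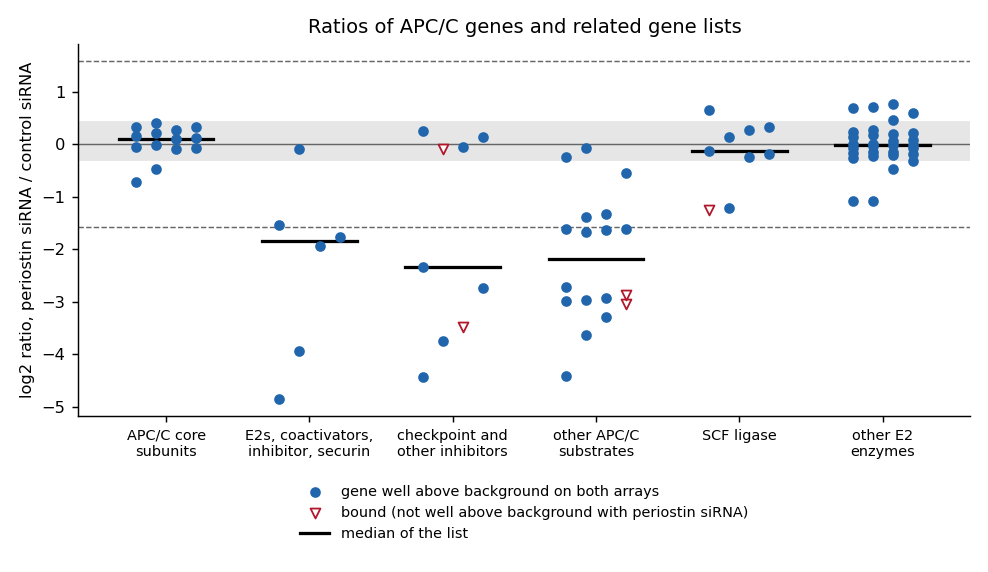
Log2 ratio (periostin over control siRNA) for each measured gene of 6 lists, with the list median as a black bar, dashed lines at 3-fold, the middle 50% of all measured genes shaded, and open triangles for bounds. The medians are 0.10 for the APC/C core, -1.85 for its regulators, -2.33 for the checkpoint list, -2.19 for further substrates, -0.14 for SCF genes and -0.01 for other E2 enzymes.

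The annotation names further copies of several of these genes, which a probe may not tell apart: 11 for CDC27, 6 for ANAPC1, 5 for UBE2C, 2 each for UBE2S and PTTG1, and 1 for CDC20. Their part in these signals was not tested, since probe sequences were not used here. Under normexp the log2 ratio of UBE2C was -3.56, that of CDC20 -2.61 and that of FBXO5 -1.11, and UBE2C, CDC20, PTTG1 and UBE2S still passed 3-fold. The size of these differences thus depended on the background correction taken with its offset of 50, and these 2 changes were not separated. Net median pixel brightness, unscaled and without an offset, gave -4.49 for UBE2C, -3.61 for CDC20 and -1.50 for FBXO5. FBXO5 passed 3-fold under 3 of the 10 alternatives.

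**Figure D4:**
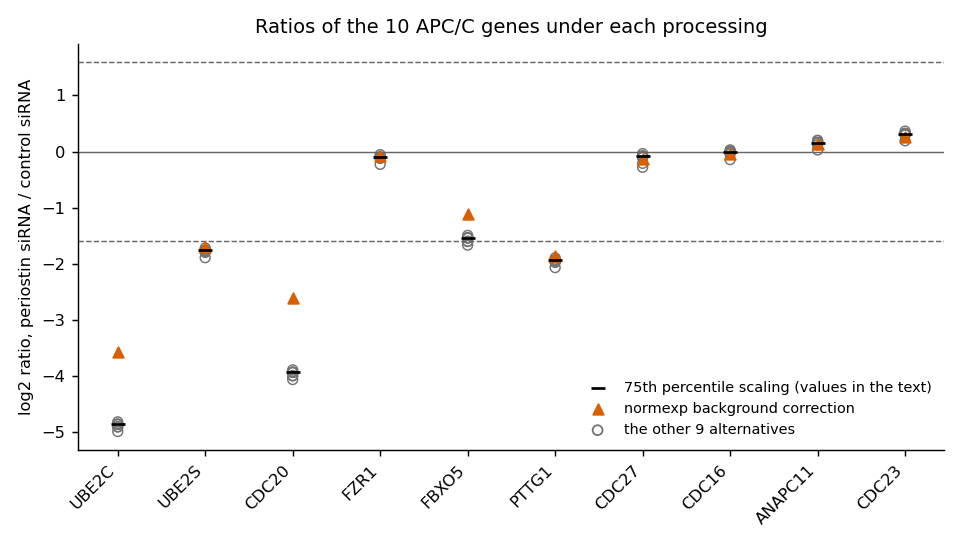
Log2 ratio of each of the 10 APC/C genes under the 75th percentile scaling (dashes), the normexp background correction (triangles) and 9 other alternatives (open circles), with dashed lines at 3-fold. UBE2C, CDC20, PTTG1, UBE2S and FBXO5 lie below every core member throughout, and the triangles move UBE2C to -3.56 and CDC20 to -2.61.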

How the data were processed

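RNA of MRC-5 cells was measured on 1 Agilent SurePrint G3 array per condition (control siRNA, periostin siRNA). The authors deposited the scanner intensity values of both arrays, background-subtracted by Feature Extraction (11.5.1.1 in the file headers, 12.0.3.1 in the submitters' processing notes), and a table of normalized intensity values. In that deposited table each probe printed once equalled the scanner intensity times 1 factor per array (3.65 and 3.54), to within 0.1%, and its column medians were 75.7 and 82.8.

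Each processed signal was divided by its array's 75th percentile, taken without control spots (372 and 383), and converted to log2. Spots of a probe were averaged, and the brightest probe stood for a gene. Where a probe was well above background on 1 array only, the ratio is a bound, written as "at least": the dim side was raised to the array's lowest detected signal (7.43 and 7.89 before scaling) unless its own signal exceeded that. Genes below background on both arrays had no ratio, which left 16052 of 21743. Of the spots, 65.1% were named through RefSeq, whose promoter table of GRCh38.p14 gave the sequences. The array was annotated on hg19, so the only coordinates given are those of the promoter windows.

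The members and gene lists were chosen with earlier results of these data known. Named were all 10 members, POSTN, the other core subunits, ESPL1, and the 4 lowest and 2 highest of each other list. Lists are described by counts and medians. The number of arrays limits the precision. Calculations used Python 3.11.15 (numpy 2.4.6, pandas 2.3.3, matplotlib 3.10.9) and R 4.3.3 with limma 3.58.1, and were tested on simulated data. The alternatives were normexp (offset 50), quantile, loess (span 0.3), median and no scaling, scaling on spots above background, the deposited table, the mean over probes, filters on dim or outlier spots, and thresholds of 2-fold and 4-fold. Protein sequences were not used here, and 1 listed substrate is not reported here.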

Additional observations from a re-analysis of the deposited data

How the results depend on the processing

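The 4 members lower by more than 3-fold, UBE2C, UBE2S, CDC20 and PTTG1, stayed past that limit under all 10 alternatives that kept it, and 0 members were higher by more than 3-fold or, at the lower limit, by more than 2-fold. FBXO5 joined them with quantile normalization (-1.60), loess (-1.60) and median scaling (-1.67). With a limit of 4-fold 2 members were lower, and with 2-fold 5 were. The log2 ratio of POSTN was -2.99 with normexp. The median of the core ranged from -0.03 to 0.15 and was below 0 only with median scaling, where the all-gene median moved by -0.13, and that of the regulators from -1.98 to -1.78. Their difference stayed between -1.96 and -1.91. CDC16 was above 0 under quantile normalization (0.01) and without scaling (0.03). Over all measured genes, 441 were lower and 541 higher by more than 3-fold, against 190 and 143 with normexp and 525 and 453 with median scaling. The cause of these differences was not tested. Low signal limited TTK, FBXO43, NEK2, SGO1 and CCNF to bounds. No paired analysis was possible because there is a single array for either siRNA, so leaving out an array was not possible either.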

Other observations

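The promoter letters were also counted over all measured genes with an entry. TTTGAA or TTTAAA was present in 134 of the 321 genes lower by more than 3-fold (41.7%) and in 2635 of the 12086 that were not (21.8%). A CCAAT box was present in 52.0% and 41.9%, and both elements together in 25.2% and 10.9%. These shares are descriptions, since genes share sequence and families and the lower genes were chosen on 1 array per condition.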
